A study of Mus musculus with 24 samples.

Results

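The effect of cisplatin on the kidney inner medulla was estimated over all 24 libraries of the series, with 11 cisplatin libraries set against 13 saline libraries and sex as a covariate, so that 1 averaged log2 fold change was obtained for each gene. The rule used treatment and sex only, and all 24 of the 24 libraries entered. The cisplatin libraries came from 6 male and 5 female samples, and the saline libraries from 6 male and 7 female samples, all of C57BL/6 mice. Mice of 9 to 10 weeks received 1 intraperitoneal injection of cisplatin at 15 mg/kg, or of the same 100 µl of saline, and the inner medulla was taken 72 h later, so that a single dose and a single time were compared. RNA was sequenced after poly(A) selection. Whether every library is 1 mouse is not in the labels, so the p-values cover only the spread from library to library, which may be technical. Genes were tested if they had at least 10 counts in at least 5 libraries, which kept 18121 of 55416 gene identifiers.

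Cisplatin is a platinum drug that crosslinks DNA and also binds the thiol groups of proteins and glutathione, and kidney injury limits its use. Epithelial cells take it up and answer with the p53 programme, with antioxidant genes driven by NRF2, with metallothioneins that bind metals, and with inflammatory and interferon genes. The inner medulla, the tip of the kidney, holds collecting ducts, thin limbs of Henle, vasa recta and interstitial cells in a hyperosmotic, poorly oxygenated setting, and it concentrates the urine under vasopressin.

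Total counts ran from 18084242 to 27279102 per library. Markers of the collecting duct and thin limbs were abundant: Aqp2, the vasopressin-regulated water channel of principal cells, had 3568 to 8249 CPM (counts scaled to the library total) in cisplatin libraries and 5042 to 8902 CPM in saline libraries, and Aqp1, the water channel of the descending thin limb and vasa recta, had 1192 to 2648 CPM in cisplatin and 1494 to 2377 CPM in saline libraries. Transcripts of neighbouring zones were present too. The 8 thick ascending limb markers summed to 2242 to 10270 CPM in cisplatin libraries and 1100 to 15050 CPM in saline libraries, and the 18 proximal tubule markers to 74.5 to 1160 CPM in cisplatin and 189 to 1145 CPM in saline libraries. Only 1 of 10 neutrophil markers and 3 of 11 lymphocyte markers had enough counts to be tested, and none of these 4 passed. Among the untested lymphocyte markers, Cd8a and Trbc2 reached 18.1 and 11.5 CPM in a saline library, against saline means of 1.57 and 0.99 CPM. The mean log2 CPM of the proximal tubule and thick ascending limb markers, called the tubule marker score, was added to the model in an alternative fit. The counts of that fit are given beside those of the gene groups where it moved them by over 1.5 times. The score itself was 2.874, 4.087 and 5.305 (lowest, median, highest) in cisplatin and 3.286, 4.618 and 5.75 in saline libraries. Some of its markers, such as Egf and Cldn16, are also members of the groups. That fit may therefore take up part of the cisplatin effect, and it cannot separate this from the tissue taken. In bulk tissue, fewer cells of a type and less RNA per cell cannot be told apart.

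Cisplatin changed the level of many genes, mostly by modest amounts. At an adjusted p under 0.05 in edgeR's quasi-likelihood test, 2928 of 18121 genes (16.2%) were higher in cisplatin libraries and 2026 (11.2%) were lower. Counts within the gene groups below are to be read beside these shares. The changes reached 2-fold in 551 of the higher and 285 of the lower genes. The median log2 fold change was 0.51 among the higher genes, -0.49 among the lower genes and 0.02 over all genes tested. For a typical higher gene, 6 of the 11 cisplatin libraries lay above the highest saline library, and for a typical lower gene 6 lay below the lowest. The cisplatin libraries were uneven: on the first principal component of the 500 most variable genes, which held 44.1% of the variance, they ran from -7.78 to 42.9, whereas the saline libraries ran from -17.2 to -10.1. The cisplatin libraries nearest to saline were female cisplatin 3, at -7.78, male cisplatin 6, at -4.19, female cisplatin 2, at -3.31, and female cisplatin 1, at -2.34. These 4 supplied the lowest cisplatin value of many of the raised genes below.

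**Figure D1:**
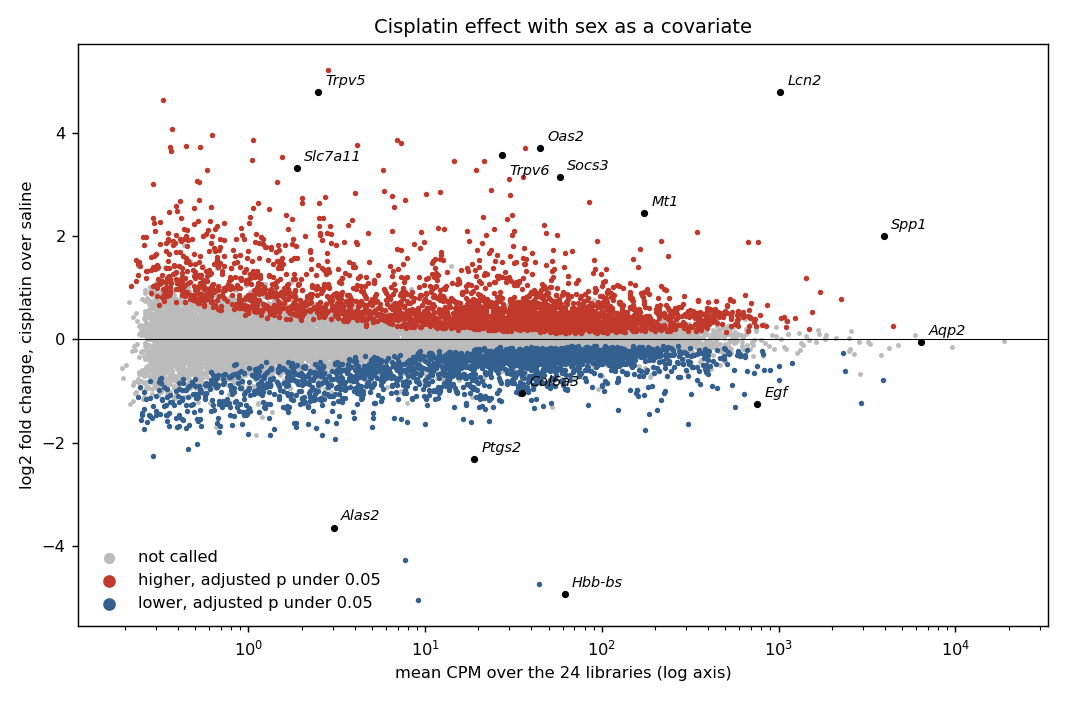
Log2 fold change of cisplatin over saline (vertical axis) against mean level over the 24 libraries in CPM (horizontal log axis), 1 point per gene tested. Coloured points passed an adjusted p under 0.05, 2928 above 0 and 2026 below; the hemoglobin genes and Alas2 lie lowest and Trpv5 and Lcn2 highest among the genes named.

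Every cisplatin library lay above every saline library for 28 genes (0.155%), and every cisplatin library lay below every saline library for 7 genes (0.0386%). The genes that separated upward included epithelial calcium channels (Trpv5, Trpv6), immune and complement genes (Oas2, Cfi, Il18r1, Bcl3, Prtn3), the receptor kinase Tyro3, the stress kinase Mapk13, the p53 target Aen and the mitochondrial peroxide-removing enzyme Prdx3. Those that separated downward included 4 globin genes, the heme-synthesis gene Alas2 and Sacm1l, a phosphoinositide phosphatase. Of these, Il18r1, Tyro3, Mapk13, Prdx3 and Sacm1l lie outside the rule for named genes and were chosen after their values were seen. Sacm1l had a log2 fold change of -0.51 ± 0.19 (SE, adjusted p = 0.0458). Its 7.69 CPM in male cisplatin 5 stood far under the next cisplatin value of 44.0 CPM, and the saline libraries had 72.8 to 89.6 CPM. It no longer passed without any 1 of 16 libraries (adjusted p up to 0.083), and passed only when female cisplatin 1, 2 or 3, female saline 2 or 6, or male cisplatin 4, 5 or 6 was the library left out.

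The calcium channel genes led the raised genes. Trpv6 and Trpv5 encode the apical channels through which epithelia take up calcium, a function placed in the distal convoluted and connecting tubule for Trpv5. Trpv6, on chromosome 6, had 22.7, 47.0 and 97.9 CPM (lowest, median, highest) in cisplatin libraries and 2.57, 4.14 and 9.19 CPM in saline libraries. Its lowest cisplatin values were those of male cisplatin 6 and female cisplatin 3, and both were still above the highest saline library. The log2 fold change was 3.56 ± 0.26 (SE, adjusted p = 1.17e-09). Trpv5 was at 1.00, 4.53 and 15.4 CPM in cisplatin libraries, against 0.0418, 0.190 and 0.461 CPM in saline libraries, a log2 fold change of 4.80 ± 0.45 (adjusted p = 1.69e-07). These channels are paralogs, and the sources used here do not say how reads matching both were counted.

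The rise covered a run of adjacent genes on chromosome 6, looked up after these values were seen. In GENCODE vM21, Trpv5 lies 15.8 kb from Trpv6 on the same strand, and Llcfc1 lies 3.7 kb from Trpv5 on the opposite strand. Llcfc1, needed for sperm-egg fusion in the mouse, was among the 28 separated genes, with a log2 fold change of 4.07 ± 0.45. Its level was low, with 0.255 to 1.87 CPM in cisplatin and 0 to 0.164 CPM in saline libraries. Kel, the Kell blood group gene, 5.6 kb from Trpv5, rose by 3.73 ± 0.49 (adjusted p = 2.4e-05), and Ephb6, a receptor of the ephrin family 0.1 kb from Trpv6, by 0.79 ± 0.13 (adjusted p = 0.000264). Other separated genes also sat beside or across from one another: Gm16174 overlaps Bcl3 on the opposite strand (log2 fold changes of 1.95 ± 0.25 for Gm16174 and 2.11 ± 0.22 for Bcl3), and Gm13398 lies 9.3 kb from Slc2a6 on the opposite strand (3.81 ± 0.34 for Gm13398 and 3.11 ± 0.33 for Slc2a6). Prtn3 overlaps Plppr3 on the opposite strand, and Plppr3 rose by 0.90 ± 0.15 (adjusted p = 0.000269). In all, 10 of the separated genes overlap a tested gene. Whether the counting used strand is not given, so reads of an overlapping pair cannot be told apart.

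Immune and epithelial genes followed. Cfi, the protease that inactivates complement C3b, had 5.99, 30.5 and 53.7 CPM in cisplatin libraries and 1.34, 2.27 and 3.48 CPM in saline libraries (log2 fold change 3.46 ± 0.34, adjusted p = 3.23e-07). Bcl3, an IκB-family cofactor of NF-κB, had 10.4, 33.0 and 45.9 CPM under cisplatin and 4.71, 6.98 and 8.15 CPM under saline (2.11 ± 0.22, adjusted p = 1e-06). The groups did not touch for either gene. Slc2a6, a sugar transporter of the GLUT family, was at 13.2, 52.9 and 131 CPM in cisplatin and 2.52, 6.30 and 9.04 CPM in saline libraries. The adaptor gene Sh3bp2 was at 7.81, 24.1 and 42.8 CPM in cisplatin and 3.39, 4.82 and 6.01 CPM in saline libraries. Prdx3, which removes hydrogen peroxide in mitochondria, showed that separation did not need a large change. It had 124, 200 and 285 CPM in cisplatin and 88.6, 103 and 112 CPM in saline libraries, a log2 fold change of only 0.91 ± 0.12 (adjusted p = 2.4e-05).

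**Figure D2:**
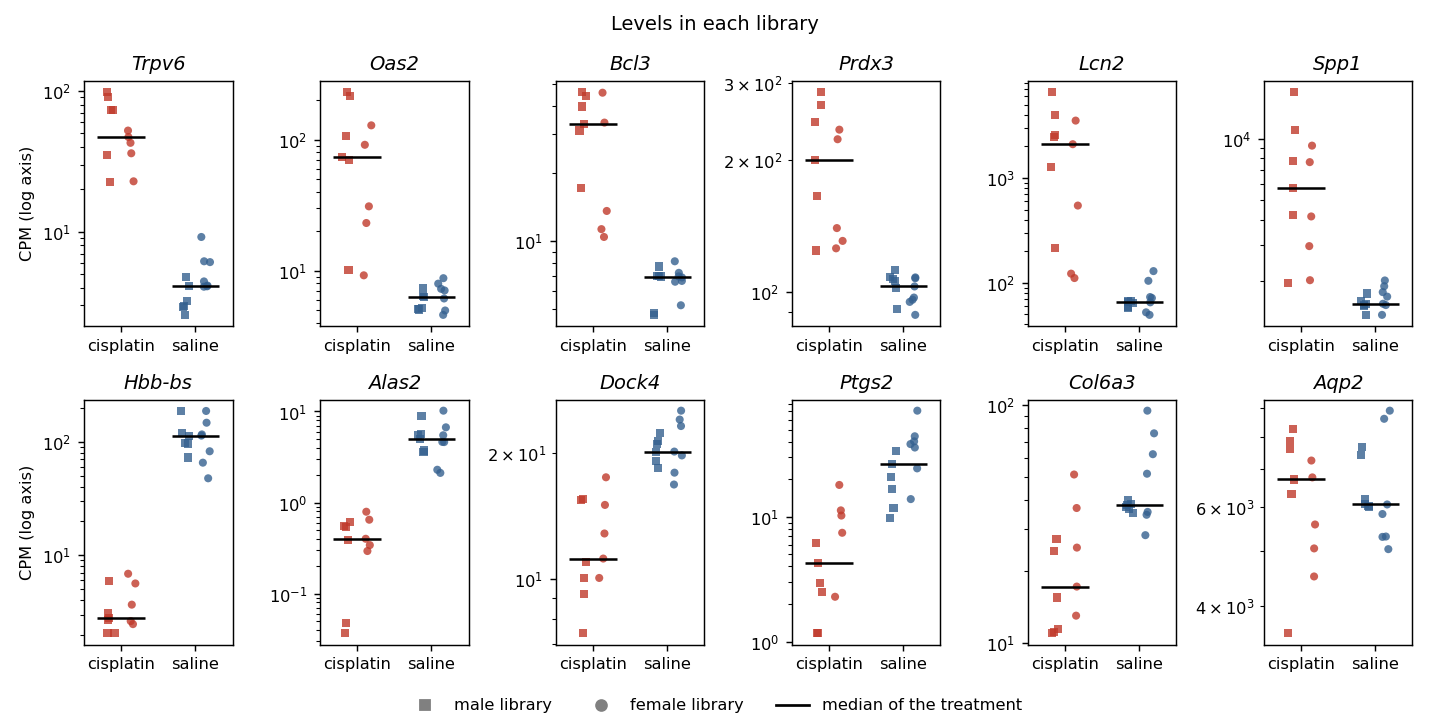
CPM on log axes in each library for 12 genes, cisplatin left and saline right, with squares for male and circles for female libraries and a line at the median of each treatment. The groups do not overlap for Trpv6, Oas2, Bcl3, Prdx3, Hbb-bs and Alas2, overlap in a few libraries for Lcn2, Spp1, Dock4, Ptgs2 and Col6a3, and overlap widely for Aqp2.

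Several injury markers of the tubule rose by large amounts but unevenly. Of 18 tested genes of tubular injury and repair, 11 were higher and 0 lower, with a median log2 fold change of 0.54 against 0.02 over all genes; 7 were higher without female cisplatin 4, and 5, with a median of 0.26, with the tubule marker score in the fit. Lcn2, the secreted siderophore-binding protein NGAL, had 111, 2100 and 6588 CPM in cisplatin libraries and 49.4, 65.8 and 129 CPM in saline libraries (4.79 ± 0.54, adjusted p = 2.54e-06). Female cisplatin 2 and 3 lay inside the saline range, and the other 9 cisplatin libraries lay above it. Spp1, the matrix protein osteopontin, had 1968, 5709 and 16900 CPM in cisplatin and 1366, 1549 and 2015 CPM in saline libraries (2.00 ± 0.27, adjusted p = 2.92e-05), and male cisplatin 6 was the only cisplatin library within the saline range. Clu, the chaperone clusterin, had 87.4, 235 and 858 CPM in cisplatin and 62.5, 90.1 and 133 CPM in saline libraries (1.91 ± 0.31). Lgals3, galectin-3, rose by 0.72 ± 0.14. The epithelial transcription factor gene Sox4 (0.02) and the intermediate filament gene Vim (-0.14) did not pass. Havcr1, the proximal tubule injury marker KIM-1, was too low to test, with a mean of 0.53 CPM in cisplatin and 0.08 CPM in saline libraries.

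The interferon programme rose almost as a whole. Type I interferons act through a complex that holds STAT2 and IRF9 and binds the interferon-stimulated response element in the promoters of its targets. Of 28 tested interferon-stimulated genes, 24 were higher and 0 were lower, with a median log2 fold change of 0.89, and the count was 24 whichever single library was left out. Ddx58, which encodes the RNA sensor RIG-I (0.20, adjusted p = 0.11), and Ifit2, an RNA-binding effector (-0.07, adjusted p = 0.662), were among the 4 that did not pass. The core of the response element, GAAANNGAA on either strand, was searched in RefSeq promoters of build GRCm38.p6, from 250 bases before to 50 bases after the gene start. It was found in 8 of the 16 higher interferon genes with a promoter entry (50%), against 8.77% of 12409 tested genes with an entry and 8.56% of all 32851 promoters. These matches are a description of sequence and not sites of binding. The promoters below are those of 3 of these 8 genes, Isg15 (chr4:156200769-156201068, minus strand), Oas1a (chr5:120907476-120907775, minus strand) and Stat2 (chr10:128270248-128270547, plus strand), shown 5′ to 3′ on the gene's strand with every match in capitals; neighbouring matches overlap in Isg15 and Oas1a.
Isg15: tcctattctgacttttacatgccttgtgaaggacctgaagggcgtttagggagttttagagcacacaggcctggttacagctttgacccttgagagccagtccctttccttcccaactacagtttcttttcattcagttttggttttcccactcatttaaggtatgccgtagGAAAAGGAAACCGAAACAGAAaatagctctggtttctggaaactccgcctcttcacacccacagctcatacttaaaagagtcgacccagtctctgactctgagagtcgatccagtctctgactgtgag
Oas1a: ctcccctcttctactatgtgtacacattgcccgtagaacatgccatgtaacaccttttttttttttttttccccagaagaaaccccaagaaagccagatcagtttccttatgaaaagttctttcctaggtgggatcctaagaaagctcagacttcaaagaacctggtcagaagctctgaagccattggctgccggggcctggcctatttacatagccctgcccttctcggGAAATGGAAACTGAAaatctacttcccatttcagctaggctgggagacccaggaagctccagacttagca
Stat2: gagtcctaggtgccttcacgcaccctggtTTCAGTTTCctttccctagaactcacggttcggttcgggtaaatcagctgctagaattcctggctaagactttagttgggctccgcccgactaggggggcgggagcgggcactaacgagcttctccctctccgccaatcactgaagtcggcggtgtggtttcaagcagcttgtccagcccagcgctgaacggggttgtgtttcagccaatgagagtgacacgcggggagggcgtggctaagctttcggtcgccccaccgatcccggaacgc

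The interferon genes rose by different amounts. Oas2, an enzyme that senses double-stranded RNA and activates RNase L, had 9.23, 74.0 and 231 CPM in cisplatin libraries and 4.61, 6.29 and 8.78 CPM in saline libraries (3.71 ± 0.42, adjusted p = 2.54e-06), with no overlap. Isg15, a ubiquitin-like modifier, had 6.35, 27.8 and 129 CPM in cisplatin and 4.16, 7.68 and 9.57 CPM in saline libraries (2.38 ± 0.39, adjusted p = 0.000307). For Isg15, 9 of 11 cisplatin libraries lay above the saline range. Of the other genes whose promoters are shown, Oas1a, of the same enzyme family as Oas2, rose by 1.88 and Stat2 by 0.85 on the log2 scale. Irf9 rose by 0.87 ± 0.14. Xaf1, a pro-apoptotic interferon target, rose by 1.32 ± 0.22. Oas3 had too few counts to be tested.

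Genes for presenting antigen split by pathway. Of 18 tested, 11 were higher and 4 lower. The immunoproteasome subunits, which cut peptides for MHC class I, were among the higher genes. Psmb8 had 8.61, 27.7 and 60.0 CPM in cisplatin and 6.83, 8.38 and 13.2 CPM in saline libraries (1.74 ± 0.29, adjusted p = 0.0003), Psmb9 rose by 1.55, Psmb10 by 1.33 and the proteasome activator Psme2 by 0.85. The class I light chain B2m did not pass (0.26, adjusted p = 0.107). The 4 lower genes were the MHC class II genes H2-Aa (-1.02, adjusted p = 0.0277), H2-Ab1 (-0.93, adjusted p = 0.0388) and H2-Eb1 (-0.88, adjusted p = 0.048) and their regulator Ciita (-1.01, adjusted p = 0.0163), all outside the rule and named because the count is small. These class II calls were fragile: 2 of 4 were left without any 1 of 13 libraries (female cisplatin 4 or 5, female saline 3, 4 or 5, male cisplatin 1, 2, 3 or 5, male saline 1, 4, 5 or 6), and 0 were left with the tubule marker score in the fit. Cd74, the class II invariant chain, had -0.73 (adjusted p = 0.0659).

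Several genes of STAT3 signalling rose, whereas chemokine and complement genes included higher and lower ones. Of 19 tested genes of the IL-6 family, STAT3 and the acute phase, 9 were higher and 1, Lifr at -0.15, was lower, with a median of 0.97. Socs3, the feedback inhibitor of STAT3 signalling, had 14.7, 104 and 257 CPM in cisplatin and 6.49, 11.1 and 20.2 CPM in saline libraries (3.14 ± 0.35, adjusted p = 2.54e-06), and female cisplatin 2 was the only cisplatin library within the saline range. Stat3 itself had 136, 208 and 371 CPM in cisplatin and 104, 124 and 148 CPM in saline libraries (0.97 ± 0.15, adjusted p = 0.000138). Cebpd, a transcription factor of the acute phase, rose by 1.61 ± 0.31. The shared receptor chain Il6st (0.08) and the related factor Cebpb (0.40, adjusted p = 0.211) did not pass. Il6 was too low to test; 3 cisplatin and 0 saline libraries had 10 or more counts, and the highest libraries had 5.20 CPM under cisplatin and 0.154 CPM under saline.

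Of 25 tested NF-κB and cytokine genes, 9 were higher and 2 lower. Csf1, the macrophage growth factor, had 23.4, 52.7 and 86.2 CPM in cisplatin and 16.2, 22.1 and 28.8 CPM in saline libraries (1.18 ± 0.16, adjusted p = 3.35e-05). Il34, the other ligand of the same receptor, rose by 1.21, and Birc3, an inhibitor of apoptosis induced by NF-κB, by 1.19. Ccl2, the monocyte chemokine, fell, with 0.332, 1.59 and 2.67 CPM in cisplatin libraries and 1.34, 3.49 and 6.36 CPM in saline libraries (-1.16 ± 0.24, adjusted p = 0.00162). The inhibitor Nfkbia (-0.05) and the chemokine Cx3cl1 (0.11) did not pass. Of 20 complement genes, 3 were higher (15%, near the 16.2% of all genes) and 4 lower, and 2 were lower with the tubule marker score in the fit. Cfi, the alternative pathway factor Cfb (1.07) and properdin, Cfp (0.81), rose. The classical pathway proteases C1s1 and C1ra, named after their values were seen, fell by 0.84 and 0.53.

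Beside these immune genes, the 15 tested macrophage and monocyte markers summed to 111.5, 207.4 and 249.9 CPM in cisplatin libraries and 82.0, 135.6 and 203.3 CPM in saline libraries (lowest, median, highest). Among them 2 were higher and 2 lower (13.3% each, against 16.2% and 11.2% of all genes), with a median log2 fold change of -0.12. With the tubule marker score in the fit, 2 were higher and 0 lower. Cd14, the lipopolysaccharide coreceptor, had 28.4, 73.3 and 150 CPM in cisplatin and 17.9, 23.0 and 33.5 CPM in saline libraries (1.74 ± 0.23), and Cd68, a lysosomal membrane protein, rose by 1.63 ± 0.26. The mannose receptor Mrc1 fell by 0.99. Adgre1, which encodes F4/80, had -0.97 and lost its call (adjusted p up to 0.0548) without female cisplatin 4 or 5, male cisplatin 1, 2 or 3, or male saline 4. The receptor Csf1r (-0.28, adjusted p = 0.376) and lysozyme, Lyz2 (-0.48, adjusted p = 0.129), did not pass. The part of these cells in the immune changes was not tested.

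Antioxidant genes rose by a small median amount, whereas Slc7a11 and the metallothioneins rose strongly, each in a subset of the cisplatin libraries. NRF2 is the transcription factor that answers electrophiles, and of 24 tested targets 15 were higher and 1 lower, with a median of 0.35; 8 were higher once the tubule marker score was added to the fit. Slc7a11, the cystine importer that feeds glutathione synthesis, had 0.106, 0.607 and 17.7 CPM in cisplatin and 0.105, 0.275 and 1.34 CPM in saline libraries (3.32 ± 0.73, adjusted p = 0.00239). Only 4 cisplatin libraries were above the saline range, led by male cisplatin 1 at 17.7, female cisplatin 5 at 10.8 and male cisplatin 3 at 7.47 CPM. These libraries were also the highest for Trib3, described below. Female cisplatin 4 and male cisplatin 2, high for Mt1, had 1.36 and 0.607 CPM of Slc7a11. Among abundant targets the shifts were smaller, with 0.42 for thioredoxin, Txn1, 0.40 for the pentose phosphate enzyme Pgd and 0.71 for Osgin1. Gstm1 (-0.08), a glutathione transferase, and Tkt (0.10), transketolase, did not pass.

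Metallothioneins bind zinc, copper and other metals through cysteines and are induced through metal response elements bound by MTF1. Of 11 tested genes of metallothioneins and zinc transport, 5 were higher and 2 lower; the lower count was 1 without any 1 of 12 libraries (female cisplatin 1, 4 or 5, female saline 5 or 7, male cisplatin 1, 3 or 5, male saline 1, 3, 4 or 5). With the tubule marker score in the fit, 3 were higher and 1 lower. The core of the element, TGCACNC or TGCGCNC on either strand, was found in 3 of 4 promoters of the higher genes (75%), against 39% of tested genes with an entry and 25.7% of all promoters. For the ATF4 targets described next, the C/EBP-ATF response element core TGATGNAA was found in 3 of 7 promoters (42.9%), against 2.86% of tested genes and 3.97% of all promoters. Both searches were added after values were seen. The promoters of the 2 metallothioneins that rose (Mt1, chr8:94178839-94179138, plus strand; Mt2, chr8:94172368-94172667, plus strand) and of the ATF4 targets Trib3 (chr2:152344011-152344310, minus strand) and Chac1 (chr2:119350992-119351291, plus strand) are given, with matches in capitals, because each of these genes was high in some cisplatin libraries and near saline in others. The libraries were not the same for both pairs: female cisplatin 4 and male cisplatin 2 were high for Mt1 (713 and 674 CPM) but not for Trib3 (8.65 and 4.39 CPM), and male cisplatin 6 was high for Trib3 but not for Mt1. They are RefSeq sequences of build GRCm38.p6.
Mt1: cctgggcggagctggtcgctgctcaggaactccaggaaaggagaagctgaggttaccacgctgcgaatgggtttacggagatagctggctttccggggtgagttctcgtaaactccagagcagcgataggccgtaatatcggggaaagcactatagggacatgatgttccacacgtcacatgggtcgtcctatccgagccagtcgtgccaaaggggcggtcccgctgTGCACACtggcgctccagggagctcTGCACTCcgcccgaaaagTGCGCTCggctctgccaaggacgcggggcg
Mt2: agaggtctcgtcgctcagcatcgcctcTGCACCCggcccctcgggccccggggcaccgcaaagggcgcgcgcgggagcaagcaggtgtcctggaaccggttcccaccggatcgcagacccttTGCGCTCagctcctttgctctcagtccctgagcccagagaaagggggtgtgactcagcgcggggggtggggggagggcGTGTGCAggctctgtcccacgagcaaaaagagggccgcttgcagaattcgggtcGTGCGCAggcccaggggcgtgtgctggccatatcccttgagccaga
Trib3: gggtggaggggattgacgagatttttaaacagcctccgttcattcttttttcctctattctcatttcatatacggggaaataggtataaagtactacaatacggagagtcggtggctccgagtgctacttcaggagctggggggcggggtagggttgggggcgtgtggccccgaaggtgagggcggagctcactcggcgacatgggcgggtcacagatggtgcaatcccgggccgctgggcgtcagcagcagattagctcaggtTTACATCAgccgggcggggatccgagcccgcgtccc
Chac1: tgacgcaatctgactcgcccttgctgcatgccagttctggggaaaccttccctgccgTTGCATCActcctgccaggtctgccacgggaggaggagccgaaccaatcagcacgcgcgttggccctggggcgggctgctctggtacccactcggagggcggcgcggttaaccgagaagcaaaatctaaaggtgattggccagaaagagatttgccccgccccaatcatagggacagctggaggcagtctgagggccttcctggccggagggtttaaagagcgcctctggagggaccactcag

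Mt1 had 27.8, 92.8 and 807 CPM in cisplatin libraries and 11.7, 38.1 and 107 CPM in saline libraries (2.45 ± 0.53, adjusted p = 0.00212). The 5 cisplatin libraries above the saline range, female cisplatin 4 and 5 and male cisplatin 1, 2 and 3, held 297 to 807 CPM, and the other 6 lay within it. Mt2 was at 0.0528, 1.81 and 45.1 CPM in cisplatin and 0.228, 0.525 and 3.04 CPM in saline libraries (3.87 ± 0.73, adjusted p = 0.000939). The zinc transporters Slc39a1 and Slc30a1 rose by 0.64 and 0.60, and the regulator Mtf1 did not pass (-0.09).

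ATF4 directs the integrated stress response, which raises amino acid transport and synthesis. Of 19 tested targets, 8 were higher and 0 lower, with a median of 0.45; 4 were higher with that score in the fit. Trib3, a pseudokinase that restrains ATF4 and AKT, had 1.73, 8.65 and 144 CPM in cisplatin and 2.10, 3.95 and 5.42 CPM in saline libraries (3.46 ± 0.66, adjusted p = 0.00101). Female cisplatin 5 at 144, male cisplatin 1 at 143, male cisplatin 3 at 114 and male cisplatin 6 at 34.2 CPM led the 6 libraries above the saline range. Mthfd2, a mitochondrial folate enzyme, was more even, with 16.1, 75.6 and 157 CPM in cisplatin and 13.2, 18.2 and 23.6 CPM in saline libraries (2.06 ± 0.26, adjusted p = 1.78e-05). Chac1, which degrades glutathione, rose by 1.77 ± 0.34 and the amino acid transporter Slc7a5 by 1.68. The serine synthesis gene Psat1 (0.06) and the stress factor Nupr1 (0.02) did not pass.

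The p53 programme was partly raised. Of 27 tested targets, 8 were higher and 2 lower, with a median of 0.22. Gdf15, a secreted stress cytokine, had 13.5, 85.4 and 169 CPM in cisplatin and 6.79, 14.4 and 45.3 CPM in saline libraries (2.22 ± 0.41). Cdkn1a, the cell cycle inhibitor p21, had 38.2, 72.4 and 200 CPM in cisplatin and 27.8, 46.7 and 62.2 CPM in saline libraries (1.10 ± 0.21, adjusted p = 0.00101). Aen, an apoptosis-enhancing nuclease, separated fully, with 35.6, 49.1 and 111 CPM in cisplatin and 26.5, 31.9 and 35.4 CPM in saline libraries (1.01 ± 0.17, adjusted p = 0.000324). The lower genes were the damage-recognition gene Xpc (-0.22) and the phosphatase gene Ppm1d (-0.56). Mdm2, the ubiquitin ligase that degrades p53, did not pass (-0.00, adjusted p = 0.975).

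Repair and proliferation genes included more lower than higher ones. Of 22 tested genes of nucleotide excision and crosslink repair, 2 were higher (9.09%) and 6 lower (27.3%), against 16.2% and 11.2% of all genes. The higher genes included the nuclease subunit Ercc1 (0.26). The lower genes included Brca1 (-0.68), the translesion polymerase gene Rev3l (-0.38) and the helicase gene Ercc3 (-0.26). With the tubule marker score in the fit, 0 were higher. Of 23 cell cycle genes, 5 were lower (21.7%) and 1 higher (4.35%). The lower count was 3 without female cisplatin 4, female saline 1, male cisplatin 2 or 3, or male saline 2 or 5. It was 2 without male cisplatin 5, female saline 1 and female saline 6 together. Ccnd1, cyclin D1, had -1.27 ± 0.33, the replication helicase subunit Mcm3 -0.55 and Ccnd3 -0.16, whereas the kinase gene Cdk2 rose by 0.32. The higher count was 2 without female cisplatin 2 or 3, female saline 1, 3, 4 or 7, or male cisplatin 3 or 6, and 0 with the tubule marker score in the fit. The proliferation marker Mki67 did not pass (-0.92, adjusted p = 0.107).

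A few genes of regulated cell death rose. Of 18 tested genes of necroptosis and pyroptosis, 4 were higher (22.2%, against 16.2% of all genes) and 0 lower: the inflammasome adaptor Pycard (1.31), the necroptosis kinase Ripk3 (1.22), its effector Mlkl (1.01) and the TNF receptor Tnfrsf1a (0.43). Of 21 genes of the BCL2 family and caspases, 7 were higher and 0 lower, and 3 were higher with the tubule marker score in the fit. The higher genes included the pore-forming genes Bak1 (0.67) and Bax (0.56) and the sensitiser Bad (0.55), and also Mcl1 (0.43), which protects from apoptosis. 1 gene of this group was lower without female saline 6.

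Chaperone genes and the genes that protect medullary cells from high osmolality mostly fell where they changed. Of 19 endoplasmic reticulum chaperone genes, 7 were lower and 2 higher: the chaperones Hspa5 (-0.31), Pdia4 (-0.34) and Dnajb9 (-0.28) fell, and Xbp1, a transcription factor of the unfolded protein response, rose by 0.44; 1 was higher with the tubule marker score in the fit. Of 19 cytosolic heat shock genes, 9 were lower and 1 higher; the 1 higher gene lost its call without any 1 of 13 libraries (female cisplatin 4 or 5, female saline 2, 3, 4 or 5, male cisplatin 1 or 2, male saline 1, 2, 3, 4 or 6) and with the tubule marker score in the fit. Hspa4l, an osmotic stress chaperone, had 42.6, 93.7 and 279 CPM in cisplatin and 146, 277 and 465 CPM in saline libraries (-1.05 ± 0.27, adjusted p = 0.00667). The chaperone genes Hspa4 and Hsp90aa1 fell by 0.52 and 0.34. The abundant chaperones Hspa8 (0.30, adjusted p = 0.278) and Hsp90ab1 (-0.00) did not pass.

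NFAT5 is the transcription factor that answers hypertonicity by raising osmolyte transporters and chaperones. Of 16 tested genes of its programme, 7 were lower and 0 higher, with a median of -0.30; 4 were lower without female cisplatin 4 or 5, male cisplatin 1, 2 or 3, or male saline 2, and 4 with the tubule marker score in the fit. Slc6a12, the betaine transporter, had 11.6, 31.6 and 90.2 CPM in cisplatin and 54.4, 73.0 and 144 CPM in saline libraries (-0.97 ± 0.27, adjusted p = 0.0117). Sgk1, a kinase induced by tonicity and aldosterone, had 289, 570 and 1240 CPM in cisplatin and 754, 1125 and 1510 CPM in saline libraries (-0.60 ± 0.18). The amino acid transporter Slc38a2 fell by 0.68. Nfat5 itself (-0.28, adjusted p = 0.0609) and the inositol transporter Slc5a3 (-0.32, adjusted p = 0.115) did not pass.

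The globin genes and Alas2 had the most negative fold changes of all called genes. Each of the 6 tested erythroid genes was lower, with a median log2 fold change of -4.50. Hbb-bs, the adult beta-globin gene on chromosome 7, had 2.05, 2.78 and 6.86 CPM in cisplatin libraries and 47.6, 112 and 188 CPM in saline libraries (-4.94 ± 0.27, adjusted p = 3.92e-12). Hba-a1, the alpha-globin gene on chromosome 11, had 1.57, 2.48 and 6.03 CPM in cisplatin and 34.3, 71.3 and 134 CPM in saline libraries (-4.74 ± 0.26). The near-identical second copies moved alike, Hbb-bt by -5.04 ± 0.32 and Hba-a2 by -4.26 ± 0.29, and how reads were divided between copies is uncertain. Alas2, the erythroid enzyme that starts heme synthesis, on chromosome X, had 0.0365, 0.400 and 0.792 CPM in cisplatin and 2.12, 5.02 and 10.2 CPM in saline libraries (-3.65 ± 0.34, adjusted p = 1.18e-07). For all 5 of these genes the highest cisplatin library was below the lowest saline library. Slc4a1, the anion exchanger shared by red cells and intercalated cells, changed least of the 6, by -1.10.

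Outside the erythroid genes, the leading lowered genes were of mixed roles. Ptgs2, cyclooxygenase-2, which makes prostaglandins in medullary interstitial cells, had 1.16, 4.23 and 18.0 CPM in cisplatin and 9.86, 26.5 and 71.1 CPM in saline libraries (-2.31 ± 0.32, adjusted p = 4.83e-05), and 8 of 11 cisplatin libraries were below the saline range. Cdh11, a mesenchymal cadherin, had 3.37, 5.91 and 15.0 CPM in cisplatin and 10.4, 24.6 and 37.0 CPM in saline libraries (-1.54 ± 0.22). Dock4, an activator of Rac, had 7.41, 11.2 and 17.5 CPM in cisplatin and 16.8, 20.1 and 25.2 CPM in saline libraries (-0.74 ± 0.12, adjusted p = 0.00017). Ephx2, the soluble epoxide hydrolase, fell by 0.88 ± 0.12, Dpyd, which degrades pyrimidines, by 1.85 ± 0.26, and the basement membrane gene Hmcn1 by 1.26 ± 0.19. Ptprn2, a receptor-like phosphatase, fell by 1.92 ± 0.25.

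Stromal genes that changed were mostly lower. Of 26 collagens and other matrix genes, 14 were lower and 2 higher, with a median of -0.54, and 5 were lower and 0 higher once the tubule marker score was added to the fit; 1 was higher without female cisplatin 4. Col6a3, a microfibrillar collagen chain, had 10.9, 17.2 and 51.0 CPM in cisplatin and 28.3, 38.0 and 94.8 CPM in saline libraries (-1.04 ± 0.22, adjusted p = 0.00192). Col12a1 fell by 1.15, Col15a1 by 0.98 and the laminin gene Lama4 by 0.87. Of 15 fibroblast and interstitial markers, 8 were lower (53.3%) and 2 higher (13.3%, Clu and the noncoding RNA Meg3), against 11.2% and 16.2% of all genes. Their median log2 fold change was -0.66. The 15 summed to 572, 882.8 and 1267 CPM in cisplatin and 630.2, 1107 and 1386 CPM in saline libraries. These sums include Clu, listed above as an injury gene, with medians of 235 CPM in cisplatin and 90.1 CPM in saline libraries. Among 8 smooth muscle and pericyte markers, 4 were lower, with -0.90 for the actin gene Acta2, -0.72 for Rgs5 and for Tagln, and -0.45 for Myh11; 0 were higher, and 1 was higher without female cisplatin 2.

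Some endothelial markers were lower. Of 14, 5 were lower (35.7%) and 2 higher (14.3%), against 11.2% and 16.2% of all genes. The 14 summed to 1209, 2316 and 3363 CPM in cisplatin and 2498, 2981 and 3616 CPM in saline libraries. The higher count was 1 without female cisplatin 4. Emcn, endomucin, had 73.0, 263 and 510 CPM in cisplatin and 330, 514 and 792 CPM in saline libraries (-0.91). Tek, the angiopoietin receptor, fell by 0.60 and Eng, a TGF-beta coreceptor, by 0.53. Cldn5, the endothelial tight junction claudin, rose by 1.39, with 6.20, 15.2 and 36.8 CPM in cisplatin and 3.46, 6.03 and 10.1 CPM in saline libraries. Plvap, of fenestrated vessels, did not pass (-0.33, adjusted p = 0.0741).

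Among paracrine factors, Edn1 rose and Ptgs2 and Hgf fell. Of 25 genes of prostaglandin, endothelin and nitric oxide signalling, 3 were higher (12%, under the 16.2% of all genes) and 6 lower; 2 were lower with the tubule marker score in the fit, 3 without female cisplatin 5, female saline 4, male cisplatin 2, or male saline 4 or 5, and 5 were higher without male cisplatin 6. Edn1, endothelin-1, which inhibits sodium reabsorption in the collecting duct, had 6.97, 15.7 and 30.6 CPM in cisplatin and 3.09, 5.32 and 10.3 CPM in saline libraries (1.55 ± 0.20, adjusted p = 2.5e-05). Pla2g4a, which releases arachidonic acid for the cyclooxygenases, fell by 0.79. Of 25 growth factors and receptors, 7 were lower (28%) and 3 higher (12%), against 11.2% and 16.2% of all genes. The lower count was 4 without female cisplatin 4 or male cisplatin 2 and with the tubule marker score in the fit. The higher count was 5 without female cisplatin 3. Hgf, hepatocyte growth factor, had 0.213, 0.837 and 2.27 CPM in cisplatin and 1.76, 2.85 and 6.08 CPM in saline libraries (-1.71 ± 0.28, adjusted p = 0.000271). Igf1 fell by 0.96, Bmp2 by 0.85, and Erbb3, a receptor of neuregulins, rose by 0.32. Egf, made in the thick ascending limb and distal tubule, had -1.26 ± 0.45 (adjusted p = 0.0406), and the call was lost without any 1 of 14 libraries (adjusted p up to 0.0708); it held only when the library left out was female cisplatin 1, 2 or 3, female saline 1, 2, 3, 6 or 7, male cisplatin 4, or male saline 2.

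Of 22 TGF-beta and CCN genes, 4 were higher (18.2%, near the 16.2% of all genes) and 5 lower. The lower count was 3 without female cisplatin 4 or 5, and the higher count was 1 with the tubule marker score in the fit. Ccn2, connective tissue growth factor, had 47.5, 97.9 and 353 CPM in cisplatin and 33.0, 38.5 and 66.8 CPM in saline libraries (1.91 ± 0.30). Ltbp1, which stores latent TGF-beta in the matrix, fell by 0.99, Thbs1, which activates it, by 0.79, and the signal transducer Smad3 by 0.35. Of 7 steroid hormone receptors, 4 were lower and 0 higher: the glucocorticoid receptor Nr3c1 (-0.56), the mineralocorticoid receptor Nr3c2 (-0.39), the progesterone receptor Pgr (-0.59) and Gper1 (-0.99). The estrogen receptor Esr1 did not pass (-0.54, adjusted p = 0.0562).

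**Figure D3:**
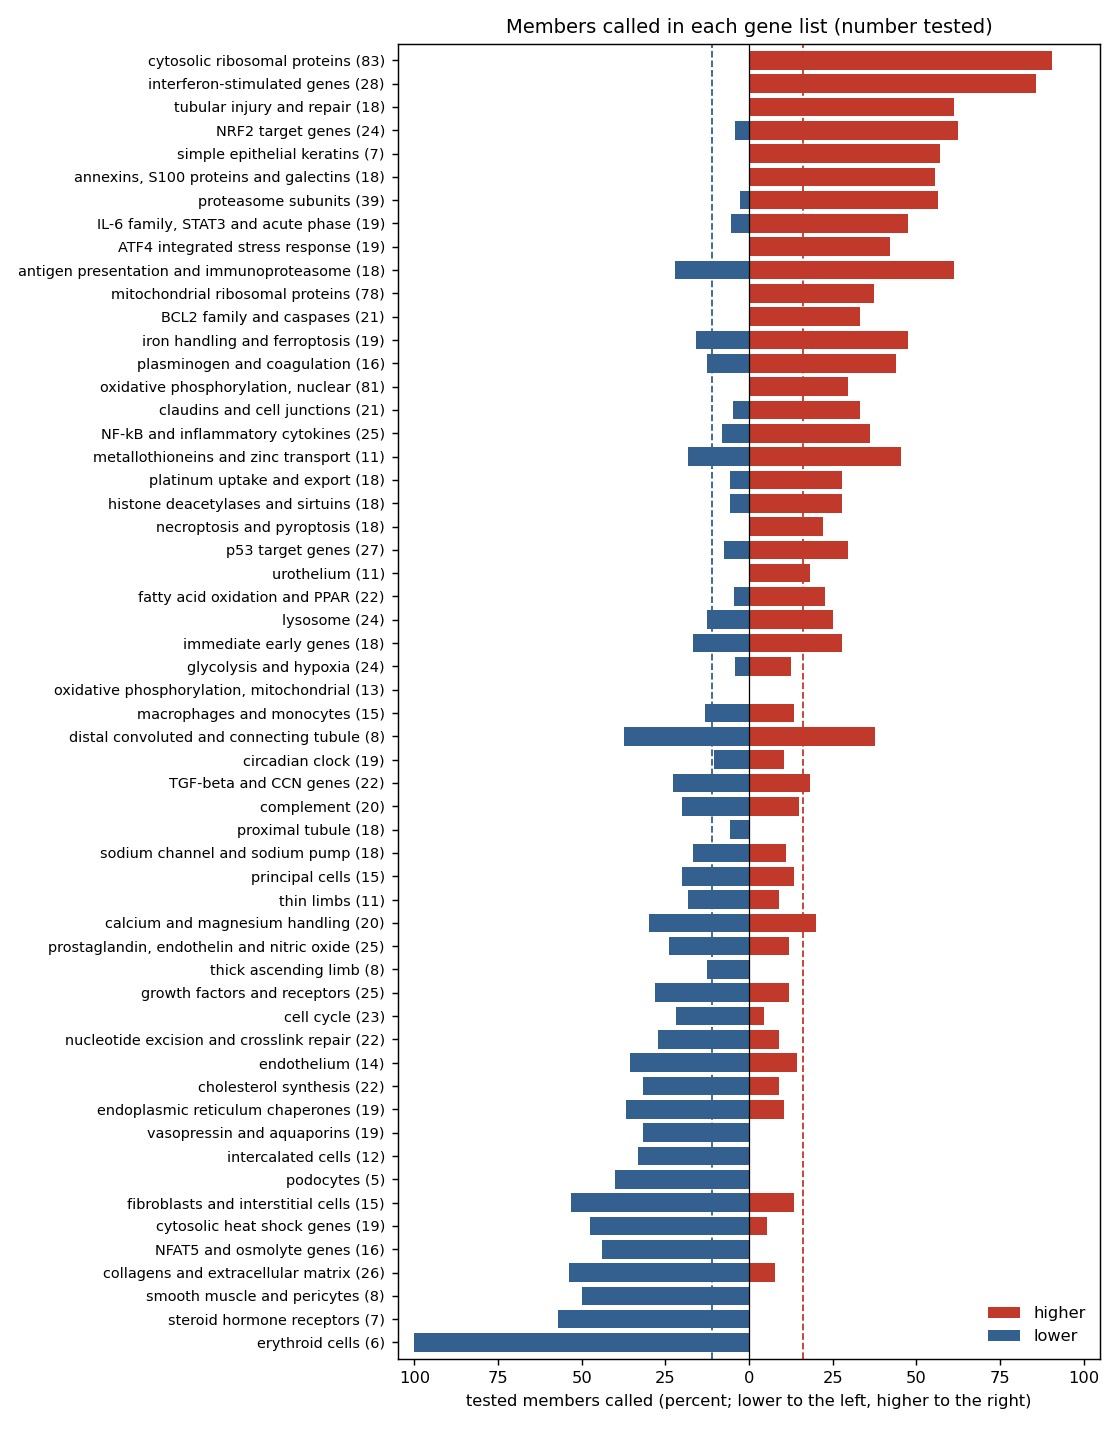
Share of the tested members of each gene group called lower (bars to the left) and higher (bars to the right) under cisplatin, in percent at an adjusted p under 0.05. Dashed lines mark the shares over all genes, 11.2% lower and 16.2% higher; interferon-stimulated genes and cytosolic ribosomal proteins reach farthest right, and erythroid genes farthest left.

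A minority of the genes of water and urea transport changed. Of 19 genes of vasopressin signalling and the aquaporins, 6 were lower and 0 higher. The basolateral water channels of principal cells fell: Aqp3 had 164, 285 and 488 CPM in cisplatin and 329, 428 and 640 CPM in saline libraries (-0.57 ± 0.15), and Aqp4 had 306, 489 and 951 CPM in cisplatin and 620, 773 and 976 CPM in saline libraries (-0.61). Pde4d, which degrades cyclic AMP, fell by 0.73. The apical channel Aqp2 did not pass (-0.05, adjusted p = 0.79), nor did Aqp1 (0.03) or the urea transporter Slc14a2 (0.27, adjusted p = 0.378), which ran from 288 to 1926 CPM in cisplatin libraries and from 418 to 770 CPM in saline libraries. Genes with a higher call appeared in DESeq2 (1) and when single libraries were left out, 2 without male cisplatin 6 and 1 without female cisplatin 1, 3 or 5, female saline 1, 4 or 7, male cisplatin 4 or male saline 6.

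Some ion transport genes rose and others fell. Scnn1b, the beta subunit of the epithelial sodium channel, had 50.8, 123 and 256 CPM in cisplatin and 22.8, 44.0 and 69.2 CPM in saline libraries (1.54 ± 0.24, adjusted p = 0.000182). Prss8, the protease that activates this channel, rose by 0.51. Of 18 genes of the sodium channel and pump, 2 were higher (11.1%, under the 16.2% of all genes) and 3 lower, the lower ones being Nr3c1, Nr3c2 and Sgk1. Of 20 calcium and magnesium genes, 4 were higher (20%) and 6 lower (30%), against 16.2% and 11.2% of all genes. With the tubule marker score in the fit, 2 were higher and 0 lower. Beside Trpv5 and Trpv6, the magnesium genes Cnnm2 and Trpm6 rose by 0.47 each. The calcium-sensing receptor Casr (-1.17), the FGF23 coreceptor Kl (-0.92), the vitamin D receptor Vdr (-0.51) and the calcium exporters Atp2b4 (-0.42) and Slc8a1 (-0.40) fell. Trpm6, Casr, Kl, Vdr and Atp2b4 were picked after their values were seen. S100g, the calcium-binding partner of Trpv6 in the gut, did not pass (0.16). Of 12 intercalated cell markers, 4 were lower and 0 higher, led by Insrr (-1.59), an alkali sensor, and the bicarbonate exchangers Slc4a1 (-1.10) and Slc4a9 (-1.01).

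Genes for platinum handling shifted by less than 2-fold where named. Of 18 genes of platinum uptake and export, 5 were higher (27.8%) and 1 lower (5.56%), against 16.2% and 11.2% of all genes. Their median log2 fold change was -0.26, against 0.02 over all genes. The higher count was 3 without female cisplatin 4 or male saline 1, 4 or 5 and with the tubule marker score in the fit. The lower count was 0 without female cisplatin 4 or 5, male cisplatin 3 or male saline 2, it was 2 without female cisplatin 3, female saline 2 or 4, or male cisplatin 4 or 6, and it was 3 without female cisplatin 2 or male cisplatin 5. The copper transporter Slc31a1, a route of platinum entry, rose by 0.40 ± 0.10, the volume-regulated anion channel subunit Lrrc8a by 0.62 and the efflux pump Abcb1b by 0.89. Abcb1b was low, with 0.584 to 3.06 CPM in cisplatin libraries. The far more abundant efflux pump Abcc4 went the other way, with 160, 242 and 398 CPM in cisplatin and 259, 356 and 463 CPM in saline libraries. The organic cation transporter Slc22a2 did not pass (-0.71, adjusted p = 0.122).

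Several structural genes of the epithelium rose. Of 21 claudin and junction genes, 7 were higher and 1 lower; 2 were lower by DESeq2 and without female cisplatin 2, or male cisplatin 4 or 6. Cldn7, a claudin of the collecting duct, had 95.1, 212 and 344 CPM in cisplatin and 83.2, 92.6 and 113 CPM in saline libraries (1.09 ± 0.18), Cldn3 rose by 0.86 and the connexin gene Gjb1 by 0.68. Of 18 annexins, S100 proteins and galectins, 10 were higher and 0 lower, and 1 was lower without male cisplatin 5. S100a11 had 381, 716 and 1183 CPM in cisplatin and 343, 383 and 543 CPM in saline libraries (0.79). Of 7 simple epithelial keratins, 4 were higher, among them Krt20 (1.98). Krt20 was near the floor and its groups overlapped, with 0 to 1.12 CPM in cisplatin and 0 to 0.384 CPM in saline libraries. The higher count was 2 without female cisplatin 4, and 0 with the tubule marker score in the fit. Of 11 urothelial markers, of cells that line the papilla, 2 were higher (18.2%, near the 16.2% of all genes) and 0 lower. The higher ones were Upk3a (0.90) and the keratin gene Krt7 (0.35). With the tubule marker score in the fit 1 was higher, and 1 was lower without female cisplatin 4, male cisplatin 5 or male saline 6.

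Genes of translation and protein turnover rose by small amounts. Of 83 genes of cytosolic ribosomal proteins, 75 were higher and 0 lower, with a median log2 fold change of 0.51, and 74 to 75 were higher whichever library was left out. Rps19 had 231, 326 and 689 CPM in cisplatin and 198, 221 and 279 CPM in saline libraries (0.68), and Rpl36a rose by 0.77. Ribosomal protein genes held 2.41%, 2.87% and 5.78% of the counts in cisplatin libraries and 2.17%, 2.33% and 2.69% in saline libraries, with male cisplatin 5 highest. Mitochondrial ribosomal proteins were higher in 29 of 78 and lower in 0, with a median of 0.19, and proteasome subunits higher in 22 of 39 and lower in 1, with a median of 0.24; 2 proteasome genes were lower without female cisplatin 2. Of 81 nuclear genes of oxidative phosphorylation, 24 were higher and 0 lower, with a median of 0.29. This count rested on single libraries: it was 8 without female cisplatin 4, 10 without female cisplatin 5 or male cisplatin 3, 11 without male cisplatin 5 or male saline 2, 12 to 15 without female saline 1 or 6 or male saline 1, 3, 4 or 5, and 40 without male cisplatin 6. It was 6 without male cisplatin 5, female saline 1 and female saline 6 together, 15 under upper-quartile scaling and 14 with no filter on low counts. The lower count was 2 without female cisplatin 3 and 1 without female saline 6, or male cisplatin 3 or 5. Of the 13 subunits encoded in mitochondrial DNA, edgeR called 0 (2 at an unadjusted p under 0.05) and DESeq2 1 higher. Their median was -0.03, from -0.21 in males and 0.17 in females. By edgeR 2 were higher without male cisplatin 6, and 1 without female cisplatin 1 or 3, female saline 5 or male cisplatin 4.

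The direction of change followed the length of the gene on the genome. Of 6208 genes spanning under 10 kb, 22.1% were higher and 4.08% lower under cisplatin, with a median log2 fold change of 0.14. In the 5267 genes of 10 to 30 kb, 17.3% were higher and 8.52% lower, and in the 4501 genes of 30 to 100 kb, 11.2% were higher and 16.7% lower. In the 1667 genes of 100 to 300 kb, 6.78% were higher and 25.7% lower. Of 409 genes over 300 kb, 5.87% were higher and 35.5% lower, with a median of -0.25. Dpyd and Gpc6, a cell-surface proteoglycan gene that fell by 1.86 ± 0.37, are examples of lowered genes of long span, and the globin genes are lowered genes of short span. The gradient was present in protein-coding genes alone, with 26.8% higher and 4.87% lower under 10 kb and 5.76% higher and 35.8% lower over 300 kb. It was present in genes of at least 10 CPM, with 32.8% higher and 4.63% lower under 10 kb and 7.66% higher and 32.4% lower over 300 kb. Without ribosomal protein genes, 20.9% of genes under 10 kb were higher. These 3 subsets were chosen after the gradient was seen.

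The libraries also differed in the level of long genes relative to short genes. The median log2 CPM of genes over 300 kb exceeded that of genes under 10 kb by 1.23, 1.57 and 1.84 in cisplatin libraries (lowest, median, highest) and by 1.73, 2.08 and 2.19 in saline libraries. Male cisplatin 5 was lowest and male cisplatin 1 highest among the cisplatin libraries, and female saline 6, at 1.73, was the only saline library below the highest cisplatin library. Male cisplatin 5 also had the highest share of ribosomal protein counts. Without that library the medians were 0.09 under 10 kb and -0.26 over 300 kb. With the tubule marker score in the fit, 16.3% were higher and 1.98% lower under 10 kb, against 2.69% higher and 21.8% lower over 300 kb. RNA quality values were not among the files used, and its part in the gradient was not tested.

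**Figure D4:**
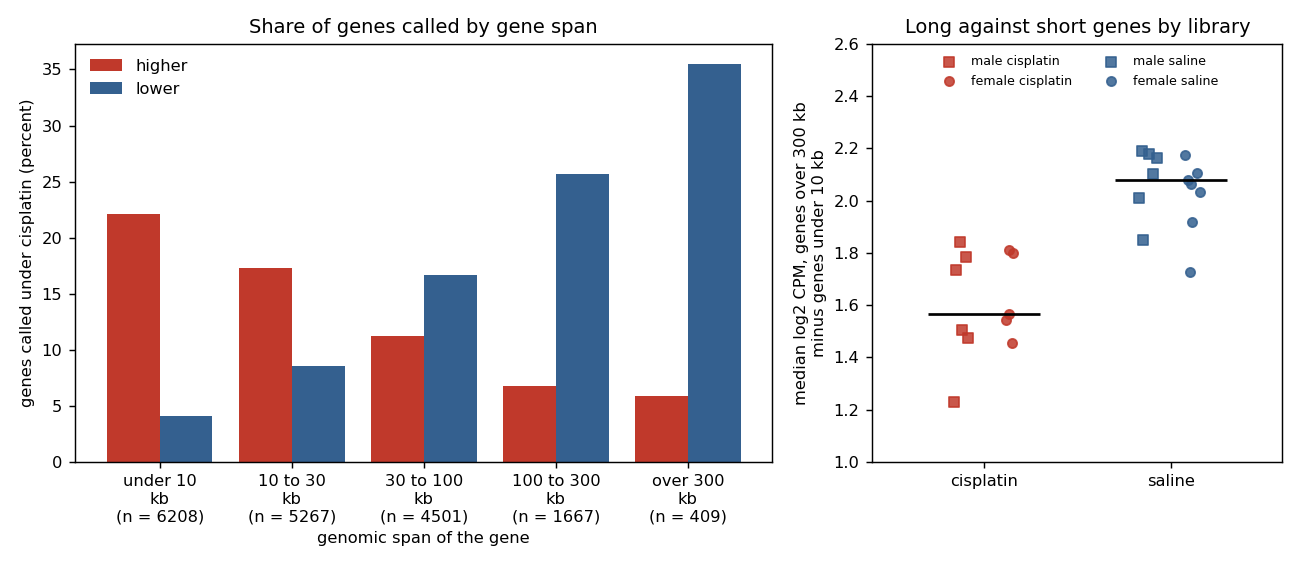
Left, share of genes called higher and lower under cisplatin, in percent, in 5 classes of genomic span. Right, for each library, the median log2 CPM of genes over 300 kb minus that of genes under 10 kb, cisplatin left (1.23 to 1.84) and saline right (1.73 to 2.19), with lines at the group medians.

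Among the called genes, the effect had the same direction in both sexes. All 2928 higher genes had a positive estimate and all 2026 lower genes a negative estimate in males and in females in a fit with a mean per group, which is a description, since both enter the average. The difference of the effect between the sexes was called for 0 genes (0%) by edgeR and 0 by DESeq2, the lowest adjusted p in edgeR being 0.945; 782 genes by edgeR and 900 by DESeq2 had an unadjusted p under 0.05. Among the leading genes, Trpv6 had 4.25 ± 0.32 in males and 2.88 ± 0.29 in females, Lcn2 had 5.50 ± 0.77 in males and 4.04 ± 0.68 in females. Hbb-bs had -5.21 ± 0.37 in males and -4.67 ± 0.38 in females. The female estimate was the larger in size for Dpyd, with -1.68 ± 0.36 in males and -2.03 ± 0.38 in females, and for Ccn2, with 1.72 ± 0.43 in males and 2.11 ± 0.42 in females. The median of the interferon-stimulated genes was 1.20 in males and 0.63 in females. A difference that misses the threshold does not show that the sexes respond alike.

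**Figure D5:**
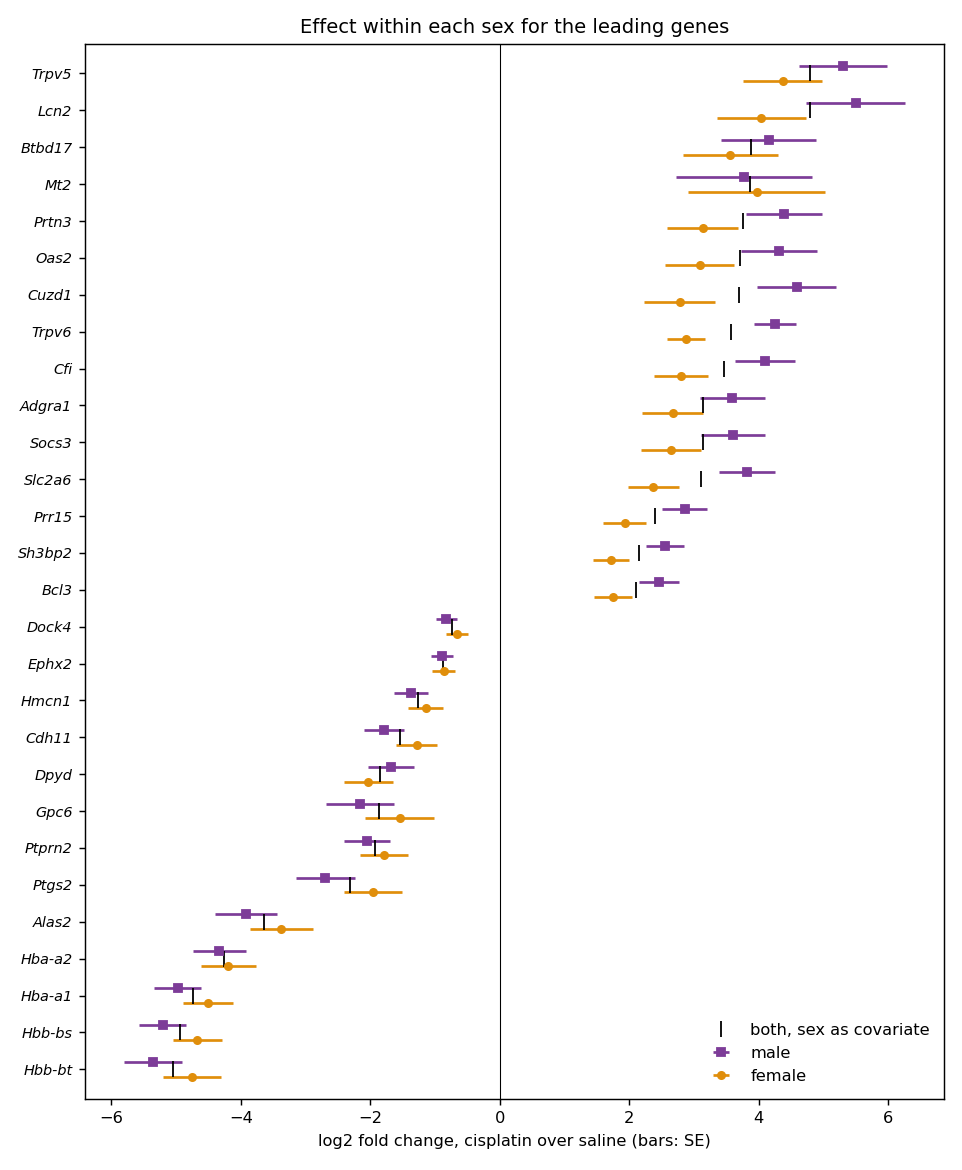
Log2 fold change of cisplatin over saline (horizontal axis) in males (squares) and females (circles) with SE bars, and the averaged effect (tick), for the leading raised and lowered genes. Every gene shown has the same direction in both sexes, from Trpv5 and Lcn2 among the raised to the hemoglobin genes among the lowered.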

How the data were processed

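RNA of the inner medulla was sequenced in 24 libraries, grouped by the labels' titles. The values were the counts deposited by the authors, whole numbers per gene and library, with no normalization. Tools listed in the submitters' processing notes are Trim Galore 0.6.7, featureCounts, Subread 2.0.1 and DESeq2 1.28.1, with build mm10. The sources used here give no aligner, annotation release or strand setting. Tested genes held 99.9% of the counts. No 2 libraries were copies (chi-square per gene at least 7.30 over 276 pairs).

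Genes with at least 10 counts in at least 5 libraries were fitted in R 4.3.3 with edgeR 4.0.16: TMM scaling, a quasi-likelihood model of sex and treatment, and Benjamini-Hochberg adjustment over all 18121 genes. A fit with a mean per group gave the effect within each sex and their difference. CPM use TMM-scaled totals. Alternatives were DESeq2 1.42.0, other scalings and filters, a replicate block, the tubule marker score (the mean log2 CPM of the proximal tubule and thick ascending limb markers) as a covariate, each sex alone, and leaving out libraries. The script was tested on simulated counts.

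The comparison, the gene lists and the rules were chosen with earlier results of these data known, so counts within lists are descriptions. Genes were named by a rule: the 12 smallest p and 8 largest fold changes in each direction among symbols of at least 1 CPM, up to 4 called and 2 uncalled members per list, and a set of kidney genes. Members of small counts, or with printed promoters, were added, and a few genes that the rule names are not reported here. Replicate numbers did not pair libraries: correlations of same-numbered libraries had medians of -0.09 to 0.13 over the 6 pairs of groups. Gene spans and neighbours came from GENCODE vM21 on GRCm38, and promoters from RefSeq.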

Additional observations from a re-analysis of the deposited data

Results flagged for a closer look

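Within the 4 groups of sex and treatment, 7 single libraries stood far from the rest of their group by Dixon's test, among 68 combinations of gene and group; chance alone flags about 1 in 20. Clu had 737 CPM in female cisplatin 4, against 87.4 to 235 CPM in the other female cisplatin libraries. Hbb-bs had 5.93 CPM in male cisplatin 5, against 2.05 to 3.08 CPM in its group. Hspa4l had 268 CPM in male cisplatin 6, against 42.6 to 94.4 CPM. In the saline groups, Mki67 had 7.33 CPM in female saline 1, against 0.380 to 1.62 CPM, and Trpv6 had 9.19 CPM in female saline 4, against 4.08 to 6.17 CPM. Female saline 5 stood apart for both metallothioneins, with 107 CPM for Mt1, against 11.7 to 51.6 CPM, and 1.98 CPM for Mt2, against 0.228 to 0.879 CPM. The cause of these values was not tested.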

How the results depend on the processing

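The numbers of genes higher (2928) and lower (2026) stayed within 1.5-fold under RLE and upper-quartile scaling, DESeq2, other filters, no sex covariate, and without male cisplatin 5, female saline 1 and female saline 6 together. They moved to 1905 higher and 1266 lower with the tubule marker score in the fit, to 1554 higher and 918 lower in males alone, and to 15 higher and 9 lower in females alone. Leaving out 1 library gave 2162 to 3352 higher and 1442 to 2458 lower genes, lowest without female cisplatin 4 and highest without male cisplatin 6 for the higher genes. No result reversed. The replicate block, whose numbers do not pair the libraries (correlations from -0.294 to 0.28), gave 2220 higher and 1688 lower genes. Of 227 named genes that were called, 217 passed with the block, 227 with DESeq2 and 194 with the tubule marker score. With 1 library left out, 214 to 227 passed. In males alone 186 passed, and in females alone 21. The difference between the sexes was called for 0 genes in each alternative run.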
